A study of Gallus gallus with 8 samples.

Results

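The regions described here are the Nrf2 CUT&Tag peaks of broiler (Gallus gallus) liver on chromosomes 16 and 22 to 33 of the galGal6 build. Every peak on these chromosomes in the 8 deposited lists was taken, and peaks that overlapped or touched were merged. Peaks were found on 12 of these chromosomes, with 0 on chromosome 29. They numbered 7878 of the 66669 peaks of all lists, and merging gave 2992 of the 30246 regions of the genome (9.89%). The group is defined by chromosome number and is not strictly the group of the shortest chromosomes. Chromosome 21, whose last peak ended at 6.84 Mb, is shorter by this measure than chromosome 27 (8.04 Mb) and chromosome 33 (7.80 Mb).

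The chicken karyotype combines a few large chromosomes with many microchromosomes, which are rich in genes and in G and C bases and recombine often. Chromosome 16 is known for carrying the major histocompatibility complex of the chicken and the ribosomal RNA genes of the nucleolus organiser. Chromosomes 25 and 27 carry clusters of feather keratin genes, and chromosome 31 carries immunoglobulin-like receptor genes of the leukocyte receptor complex. Nrf2 is a transcription factor that is released from its inhibitor Keap1 under oxidative stress and then activates antioxidant and detoxification genes, for which the liver is a main site.

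CUT&Tag uses an antibody to bring a transposase to a protein on chromatin, where it cuts and tags the DNA. The HT group (4 samples) is labelled with high temperature. The PT group (4 samples) carries labels that disagree, since its treatment type is phloretin, its description is normal, and its protocol field names high temperature, as it does for HT. HT is therefore compared with PT without a statement on what PT birds were given. All samples are labelled broiler liver; line, age and sex are not stated, and peak lists hold no marker levels against which the tissue could be checked. No label states that samples came from separate birds, so p-values measure only the spread between these lists, which may be technical.

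The lists held 9437 to 11141 peaks in HT and 5120 to 7302 in PT. They contain no read counts, so the depth is unknown. Lists of 1 group were not independent, on these chromosomes or in the rest of the genome. Among regions in which each of a pair of lists placed 1 peak, 50.2% to 65.9% of the peaks within HT and 55.5% to 81.7% within PT began and ended at the same bases. Between an HT and a PT list this share was 0.526% to 1.09%. In the rest of the genome it was 55.8% to 71.6% within HT, 60.5% to 83.3% within PT and 0% to 0.444% between groups. Every p-value below treats the lists as independent.

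Peaks were densest on chromosomes 33, 30, 32 and 25 in both groups, and chromosome 24 had the fewest per Mb. Density was taken over the span from base 1 to the end of the last peak of any list, because no chromosome lengths of the build were used here. The 12 spans sum to 59.9 Mb, or 6.25% of the span of all numbered chromosomes, and held 11.5% of their regions. HT lists had 20.99, 22.8, 20.8 and 22.8 peaks per Mb on these chromosomes, and PT lists 11.3, 9.75, 12.4 and 10.6. The HT lists thus lay close together and well above every PT list.

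On chromosomes 11 to 20 without 16, a set of longer chromosomes with spans of 10.3 to 20.4 Mb, the density was 9.63 ± 0.677 peaks per Mb in HT and 5.24 ± 0.907 in PT (SD, n = 4 lists each). Chromosome 21, which is in neither set, had 10.6 ± 1.001 in HT and 3.11 ± 0.749 in PT, a ratio of 3.4. On chromosomes 1 to 5 the density was 7.30 ± 0.745 in HT and 5.13 ± 0.903 in PT. Within a list, the density on chromosomes 16 and 22 to 33 was 1.86 to 2.49 times that on chromosomes 11 to 20 without 16. It was higher in all 8 lists, with a mean ratio of 2.201 (exact permutation test by sign flips over 8 lists, p = 0.00781, the smallest that 256 flips allow; Benjamini-Hochberg adjusted p = 0.00781 over 3 such tests). The distance from one peak to the next in a list had a median of 20.8 ± 0.777 kb in HT and 38.2 ± 2.58 kb in PT. On the other numbered chromosomes the median was 73.7 ± 5.28 kb in HT and 116 ± 17.9 kb in PT.

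**Figure D1:**
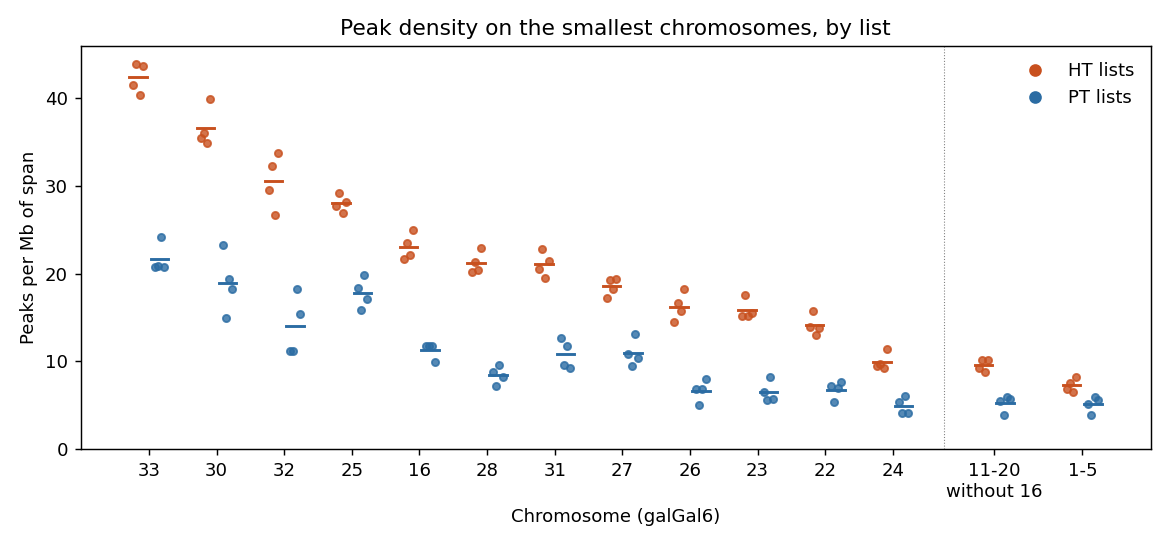
Peaks per Mb of span (vertical axis) on each chromosome, with 1 point per list, HT left of PT, and the mean of 4 lists as a bar. Chromosome 33 was highest, at a mean of 42.4 in HT and 21.7 in PT, and chromosomes 11 to 20 without 16 and 1 to 5 are shown at the right.

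Chromosome 33 had the highest density, at 42.4 ± 1.73 peaks per Mb in HT and 21.7 ± 1.71 in PT (SD, n = 4 lists each). It alone held 675 of the 2992 regions. Chromosome 30 followed with 36.6 ± 2.27 in HT and 19.003 ± 3.43 in PT. Chromosome 24 was lowest with 9.97 ± 0.998 in HT and 4.95 ± 0.927 in PT, close to the level of chromosomes 11 to 20 without 16. Chromosome 16 came after 4 others in both groups, at 23.1 ± 1.47 in HT and 11.3 ± 0.891 in PT. Its span of 2.81 Mb includes the part before its first peak, which began at 518483. Its density and place without that part were not computed.

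In HT the order down from chromosome 33 was 30, 32, 25, 16, 28, 31, 27, 26, 23, 22 and 24. The values of neighbours in this order overlapped between lists in 6 of 11 cases. Clear steps lay below chromosomes 33, 30, 25, 31 and 22. In PT the values of all 11 pairs of neighbours overlapped. Across the 12 chromosomes the mean densities of HT and PT had a Spearman rho of 0.944, as a description over chromosomes that share their spans and their libraries. Over all 32 numbered chromosomes with peaks, span and density had a rho of -0.92 in HT and -0.611 in PT. Among the 12 alone it was -0.42 in HT and -0.322 in PT. Span is also the denominator of density in these correlations.

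HT lists held more peaks than PT lists on each of the 12 chromosomes. For the 12 together this also held as a share of the list and when every list was reduced to its 5120 highest-scoring peaks. The 4 HT lists had 1258, 1365, 1248 and 1369 peaks here, and the 4 PT lists 680, 584, 741 and 633. The means were 1310 ± 66.0 in HT and 659.5 ± 67.0 in PT (SD, n = 4 lists each), a ratio of 1.99. As a share of the list this was 12.8%, 12.7%, 13.2% and 12.3% in HT and 10.5%, 11.4%, 10.1% and 9.54% in PT. The lowest HT share was above the highest PT share. The difference in means was 2.37 percentage points. Covered length averaged 866 ± 26.7 kb in HT and 442 ± 38.6 kb in PT.

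An exact permutation test, two-sided, gave p = 0.0286 for each of these differences, which is the lowest value 70 relabellings can reach. Adjusted over 7 tests by Benjamini-Hochberg, p was 0.05, on the threshold and not under it. Without HT list 1 or HT list 3, the exact permutation p of the share was 0.0571. With the 5120 highest-scoring peaks of every list, HT lists had 729, 736, 714 and 721 peaks here and PT lists 542, 584, 532 and 504. That is a ratio of 1.34 and a difference of 184.5 peaks, which is 3.60 points of the list (exact permutation p = 0.0286). This cut drops low-scoring peaks, more of them from the longer HT lists and none from PT list 2. Peaks on these chromosomes ranked above the middle of their lists. The cut therefore changes score as well as length, and their parts in the difference were not separated. The difference in covered length was then 172 kb, against 424 kb with the full lists.

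The excess of HT over PT was not shown to differ from that on chromosomes 11 to 20 without 16. Per 100 peaks on chromosomes 11 to 20 without 16, HT lists had 101 ± 2.57 peaks on chromosomes 16 and 22 to 33, and PT lists 94.6 ± 11.8 (SD, n = 4 lists each). The difference of 6.41 had an exact permutation p of 0.314. It was larger among strong peaks, at 27.5 with 5120 peaks per list and 18.8 in the highest-scoring 50% of each list, each with an exact permutation p of 0.0286. Without PT list 2, the shortest, it was 11.8 (exact permutation p = 0.0286).

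Single chromosomes differed in the size of the HT excess. Peak counts were higher in every HT list than in any PT list on all 12 chromosomes, which also held for 97.1% of the 34 chromosomes tested in the genome. The share of the list was higher in every HT list on 6 of the 12, chromosomes 22, 23, 24, 26, 28 and 32. This compares with 38.2% of all chromosomes. These 6 each had p = 0.0286 (exact permutation test) with 0.0607 as the adjusted p over 34 chromosomes, so 0 of the 12 passed (0.00% of all chromosomes passed in this direction). On 0 of the 12 was the share lower in every HT list, which held for 8.82% of all chromosomes. With 0.0286 as the smallest possible p, at least 20 of the 34 chromosomes had to reach it before any could pass, so the count of 0 says little. The share still moved when lists were cut to the same length by score. With 5120 peaks per list the difference on chromosome 24 was 0.0195 points, against 0.125 with the full lists, and the groups overlapped. On chromosome 31 it was 0.508 points, against 0.211, and on chromosome 33 it was 1.10 points, against 0.546.

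Chromosome 28 had the highest ratio, 2.50, with 103, 109, 104 and 117 peaks in HT and 45, 37, 49 and 42 in PT. Its share was 1.05 ± 0.0356% in HT and 0.680 ± 0.0380% in PT (SD, n = 4 lists each). Chromosome 23 followed with a ratio of 2.44 and 97.0 ± 6.73 peaks in HT against 39.75 ± 7.32 in PT. Chromosome 26 had 90 ± 8.83 in HT and 37.0 ± 6.63 in PT, a ratio of 2.43. Chromosomes 25 and 27 had the lowest ratios. Chromosome 25 had 110, 116, 107 and 112 peaks in HT and 73, 63, 79 and 68 in PT, a ratio of 1.57. Its share of the list was the only one with a lower mean in HT, 1.09 ± 0.0578% against 1.12 ± 0.0871% in PT, and the groups overlapped. Chromosome 27 had a ratio of 1.69, with 149.25 ± 7.93 peaks in HT and 88.25 ± 12.7 in PT.

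On chromosome 33, HT lists had 324, 343, 315 and 341 peaks and PT lists 162, 163, 189 and 162. Its ratio of 1.96 was close to that of the 12 chromosomes together. With 5120 peaks per list, all 12 chromosomes had a higher mean in HT, with ratios from 1.04 on chromosome 24 to 1.68 on chromosome 22. Chromosome 23, with the second highest ratio in the full lists, then had 1.29, below the 1.34 of all 12 together. Chromosomes 26 and 28 had 1.66 and 1.62. The groups did not overlap on 8 of the 12, against 35.3% of the 34 chromosomes of the genome. The other 4 were chromosomes 16, 24, 25 and 27.

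**Figure D2:**
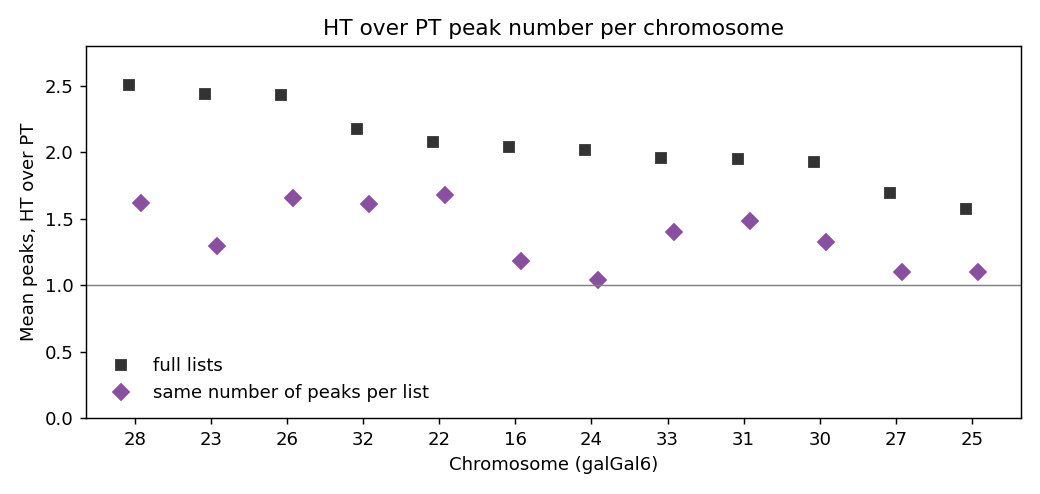
Mean number of peaks in HT over that in PT (vertical axis) for each chromosome, with the full lists as squares and the 5120 highest-scoring peaks of each list as diamonds; the line marks a ratio of 1. Ratios ran from 1.57 to 2.50 with full lists and from 1.04 to 1.68 with equal lengths.

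Regions on these chromosomes were more often found in several lists than regions elsewhere. Of the 2992 regions, 555 (18.5%) were HT-only, meaning present in all 4 HT lists and absent from PT, against 14% of all regions of the genome. PT-only regions, in all 4 PT lists without any HT list, numbered 187 (6.25%), against 6.83% of all regions. All 8 lists held 132 (4.41%), against 2.41% of all regions. A single list accounted for 1311 regions (43.8%), where it was 57.3% in the rest of the genome. Among all regions of the genome, these chromosomes thus held 13.1% of the HT-only set, 9.05% of the PT-only set and 18.1% of those in every list.

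These counts depended on list length, score and overlap. With 5120 peaks per list, HT-only regions numbered 253 and PT-only regions 156. In the highest-scoring 50% of each list they numbered 269 and 101. Shares of all regions of the genome are not given for these settings. Those in all 8 lists numbered 81 with a required cover of 50%, and 86 without chromosome 33. At least 2 lists gave the same peak ends in 526 HT-only regions (94.8%) and in 183 that were PT-only (97.9%). Only 29 HT-only and 4 PT-only regions had no such pair. Such counts are not given for the rest of the genome.

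**Figure D3:**
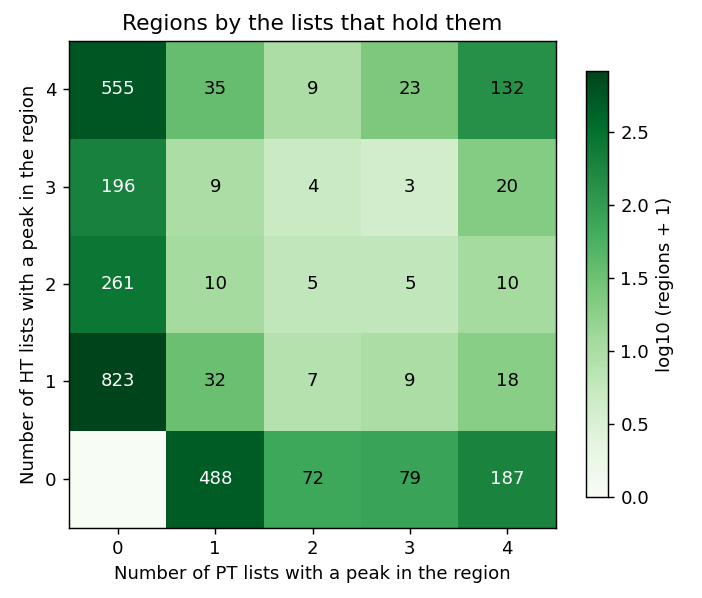
Number of regions on chromosomes 16 and 22 to 33 by how many HT lists (vertical axis) and PT lists (horizontal axis) held them, with colour on a log10 scale. The corners for 1 group alone held 555 (HT) and 187 (PT) regions, and the corner of all lists held 132.

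The 2 groups shared more of these chromosomes than of the rest of the genome. The Jaccard index, the bases covered by both lists of a pair divided by those covered by either, was 0.166 to 0.178 between an HT and a PT list (16 pairs). In the rest of the genome it was 0.0924 to 0.110. Within HT it was 0.529 to 0.667 here and 0.430 to 0.600 elsewhere (6 pairs each). Within PT it was 0.498 to 0.684 here and 0.351 to 0.584 elsewhere. Of the regions held by all 4 HT lists, 199 of 754 (26.4%) were also met by a PT list, against 20.3% in the rest of the genome. Of those held by all 4 PT lists, 180 of 367 (49.0%) were also met by an HT list, against 32.2%. A denser list meets more regions of another list whatever their origin, and no test of these shares was made.

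Regions held by both groups made up 20.4% of those on chromosome 30, 15.6% on chromosome 33, 14.7% on chromosome 25 and 13.97% on chromosome 16. They made up 3.70% on chromosome 24 and 4.58% on chromosome 23. Among all regions of the genome they made up 6.81%. Chromosome 33 held 46 of the 132 regions found in all 8 lists. Chromosome 25 held 17, chromosome 27 held 15, chromosome 22 held 13 and chromosome 16 held 10. In this order, the counts were 6.81%, 6.94%, 4.12%, 7.69% and 7.35% of each chromosome's own regions. The share over all regions of the genome was 2.41%. Chromosome 24 held 1 of the 132 (0.529% of its regions), chromosome 26 held 2 (0.840%) and chromosome 32 held 2 (4.35%).

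The highest-scoring regions of all 8 lists were wide and spread over 7 chromosomes. The score is the value the authors' caller gave each peak, on a scale that is not stated, and it is used here only to rank peaks within a list. The 10 such regions with the highest mean percentile were 1060 to 6507 bp wide. Below the highest of them, which gave the highest-scoring peak of each list, came 22:143731-144790, with scores of 2158.59 to 2260.94 in HT and 1630.69 to 1702.9 in PT. It ranked 5 in the HT lists and 3 to 5 in the PT lists. A second region of chromosome 22, at 22:112295-118255, ranked lower, at 12 to 13 in HT and 10 to 12 in PT. Its scores were 1217.13 to 1279.58 in HT and 1096.95 to 1110.42 in PT. Chromosome 30 also had a pair of neighbours in this set, 30:1238654-1240058 and 30:1244810-1246650.

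On chromosome 32, the shortest of the 12 by span, 32:615826-618859 scored 1322.84 to 1369.31 in HT and 820.36 to 902.15 in PT. The region 28:5090248-5096754, 6507 bp wide, lay at the end of its chromosome's span. Chromosome 33 held the most regions of every list and none of these 10. Its first, 33:2874601-2879409, scored 612.37 to 724.91 in HT and 470.03 to 527.42 in PT. The first such region on chromosome 24 ranked far lower. That at 24:6448203-6449192 scored 43.33 to 62.29 in HT and 63.23 to 70.89 in PT, a mean percentile of 55.7.

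Ranked by mean percentile, the first 8 HT-only regions lay on chromosomes 24, 25, 27, 30 and 33, and those of PT on chromosomes 26, 28, 31 and 33. Chromosome 25 gave 2 of the first 4 in HT, and the second of them, 25:1939296-1940415, was 1120 bp wide with scores of 151.43 to 194.89. On chromosome 30, 30:1616917-1617356 was 440 bp wide and scored 159.96 to 199.97. Chromosome 33 gave 3 of the 8, of which 33:4897690-4898791 scored 128.8 to 177.94. The region 27:6156272-6156516 was 245 bp wide and scored 140.31 to 210.84.

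Among the PT-only regions, chromosome 33 and chromosome 31 gave 3 each. The first on chromosome 33, 33:6464522-6465141, spanned 620 bp and scored 181.94 to 210.79 in PT. The next, 33:1298113-1298323, was 211 bp wide and scored 162.78 to 186.17. On chromosome 31, 31:2440866-2441088 scored 129.2 to 157.07 and 31:4690717-4691716 scored 106.71 to 133.32. Peak ends were identical in all 4 PT lists in 5 of these 8 regions, and in all 4 HT lists in 1 of the HT set. With the handling of duplicate reads not stated, high scores in narrow regions cannot be read as strong binding. Genes at these regions are not named, since a galGal6 annotation was not used here.

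Along the chromosomes, peaks gathered in short stretches that were partly common to HT and PT. The spans were divided into 608 windows of 100 kb, of which 39 (6.41%) had no peak in any list. HT lists all had more peaks than any PT list in 186 windows (30.6%), against 14% of all windows of the genome. They all had fewer in 18 windows, where 4.03% of the windows of the genome did so. A window can show an HT excess by this rule only with a peak in every HT list. HT lists were longer, and had 21.9 peaks per Mb here against 8.64 over all numbered chromosomes. Density and list length were not taken out of these shares.

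By the mean of all 8 lists, 16:1800001-1900000 was the densest window, and there the groups were close in number. All 4 HT lists had 10 peaks in it, and the PT lists had 10, 9, 10 and 8. By the same mean, 33:3800001-3900000 was among the next, with 10, 10, 11 and 10 peaks in HT and 9, 8, 8 and 8 in PT. In HT alone, 33:4500001-4600000 was the densest, with 12.75 ± 0.957 peaks in HT and 5.25 ± 0.5 in PT (SD, n = 4 lists each). In PT alone it was 27:2100001-2200000, which had 8.25 ± 1.26 peaks in HT and 10 ± 1.41 in PT (SD, n = 4 lists each). On chromosome 25, 25:3000001-3100000 had 12, 15, 8 and 8 peaks in HT and 6, 6, 5 and 7 in PT.

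Chromosome 16 combined a stretch held almost wholly by HT lists with others where the groups had similar numbers. No list had a peak before position 518483. This was not particular to chromosome 16. On chromosomes 6, 9, 10, 13 and 17 the first peak of any list began at 505340, 508223, 539027, 524516 and 522756. Whether the build holds readable sequence before these positions was not tested. From 600001 to 1800000, HT lists had 35, 40, 37 and 42 peaks and PT lists 3, 4, 5 and 3, a ratio of 10.3. In the window after it, from 1800001 to 1900000, the ratio was 1.08. From 1900001 to the last peak it was 0.945, with 13 ± 0.816 peaks in HT and 13.75 ± 1.5 in PT. In the first window with peaks, from 500001 to 600000, HT lists had 3, 3, 3 and 4 and each PT list had 5. Within the last stretch, 16:2000001-2100000 had 2, 3, 2 and 2 peaks in HT and 6, 5, 5 and 6 in PT. By the difference of mean counts, this was the largest PT excess of any window on the 12 chromosomes.

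The stretch from 600001 to 1800000 was picked for its difference, so it carries no test. The genome was also cut into fixed tiles of the same length, 1.2 Mb. Among 302 tiles with a mean of 10 or more HT peaks, the median ratio was 1.93 and 11 reached 5. The highest ratio, 11.5, was that of Z:64800001-66000000. The tiles were kept by their HT peaks, which favours high ratios. Their bounds were fixed, whereas those of the stretch were picked, so its ratio cannot be ranked among them. The stretch on chromosome 16 held 74 regions, of which 65 were met only by HT lists and 6 only by PT lists. It included 17 HT-only and 0 PT-only regions, kinds that made up 14% and 6.83% of all regions of the genome. In 16 of these 17, at least 2 HT lists gave the same peak ends. The HT peaks here scored low, with list medians of 45.7 to 49.4 where the lists begin at 40, at percentiles of 23.2 to 45.1 of their lists. With 5120 peaks per list, HT lists had 12, 16, 13 and 17 peaks here and PT lists 3, 4, 3 and 3. The part of list length, score and shared peak ends in this pattern was not tested.

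Over its whole span, this stretch included, chromosome 16 held 4.94 ± 0.129% of the peaks of the 12 chromosomes in HT and 4.85 ± 0.572% in PT (SD, n = 4 lists each). The difference was 0.0962 points (exact permutation test, p = 0.886, adjusted p = 0.886). It turned to -0.582 points with 5120 peaks per list (exact permutation p = 0.171). Chromosome 16 had 61, 66, 62 and 70 peaks in HT and 33, 33, 33 and 28 in PT. Of its 136 regions, 23 (16.9%) were in all 4 HT lists only and 5 (3.68%) in all 4 PT lists only. Among all regions of the genome these shares were 14% and 6.83%. All 8 lists held 10 (7.35%), against 2.41% of all regions. Of those 10, 6 had their centre in the window from 1800001 to 1900000, the widest being 16:1828765-1836060 with 7296 bp. The highest-ranked, 16:518483-519769, was the first peak of the chromosome and scored 605.27 to 662.77 in HT and 302.16 to 334.53 in PT. Next came 16:1840035-1841794, with 263.28 to 440.02 in HT and 162.75 to 254.2 in PT. The highest-ranked PT-only region, 16:2609149-2609609, scored 79.27 to 175.78 in the PT lists. Its HT-only counterpart, 16:1748233-1748503, scored 73.32 to 106.8 in the HT lists.

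**Figure D4:**
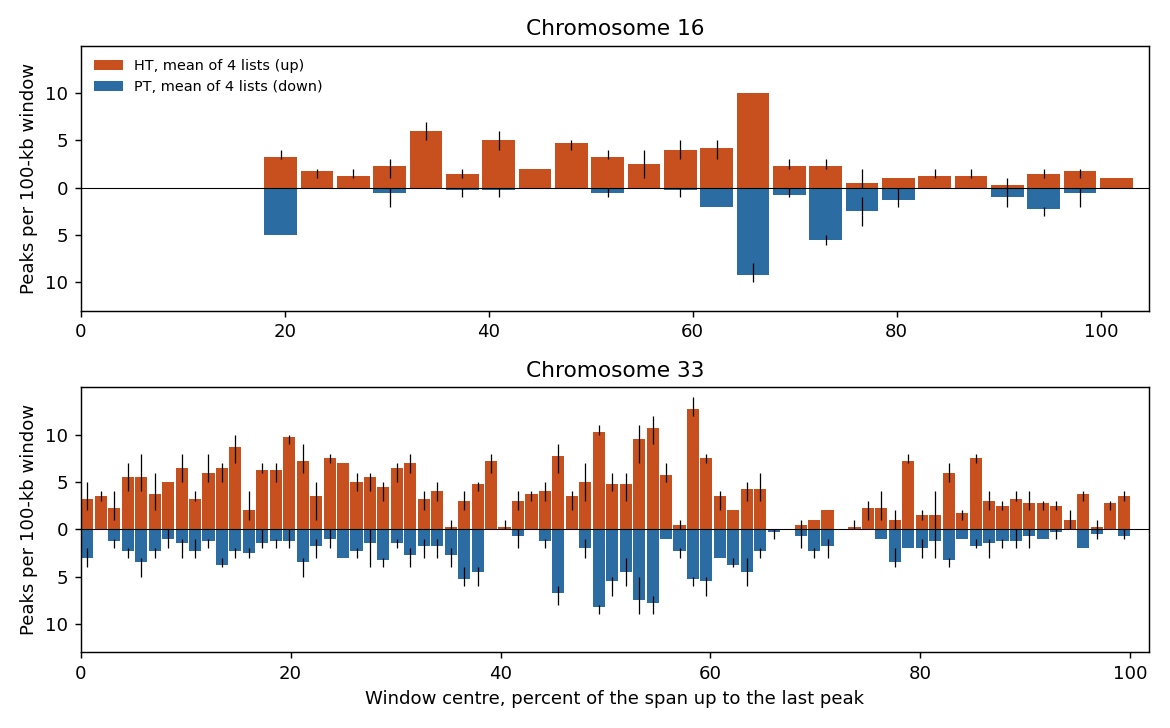
Mean peaks per 100-kb window along chromosomes 16 and 33, with HT drawn upward, PT downward and black lines for the range of 4 lists; the horizontal axis is the window's place in percent of the span up to the last peak. On chromosome 16 the groups had 10 (HT) and 9.25 (PT) peaks in the densest window, while the stretch from 600001 to 1800000 held 38.5 peaks per HT list and 3.75 per PT list.

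On chromosome 33 the HT excess was largest in the first part of the span. From base 1 to 3100000, HT lists had 160.25 ± 6.80 peaks and PT lists 67.25 ± 8.62 (SD, n = 4 lists each), a ratio of 2.38. From 3100001 to 4600000 they had 86.25 ± 3.40 in HT and 52.75 ± 2.63 in PT, a ratio of 1.64, and 26 of the 46 regions of all 8 lists. From 4600001 to the last peak they had 84.25 ± 7.80 in HT and 49 ± 4.55 in PT, a ratio of 1.72. These bounds were chosen after the values were seen. By the difference of mean counts, which can be larger where peaks are dense, the 5 windows with the largest HT excess were all on chromosome 33. Among them was 33:4500001-4600000, in the second stretch, with means of 12.75 in HT and 5.25 in PT. In 33:3000001-3100000, HT lists had 8, 8, 6 and 7 peaks and every PT list had 0. In 33:1500001-1600000 they had 9, 10, 10 and 10, against 2, 1, 2 and 0 in PT.

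Pooled over the 12 chromosomes, peaks were spread fairly evenly when each span was cut into 10 equal parts. Single chromosomes were less even. Chromosome 16 had 0% of its peaks in the first 10% in both groups, since its first peak in any list began at 518483. Chromosome 24 had 0.641% in the first and 26.9% in the last 10% in PT. The first 10% held 12.03 ± 0.317% of the peaks in HT and 10.99 ± 1.21% in PT, and the last 10% held 10.5 ± 0.146% in HT and 9.61 ± 1.09% in PT (SD, n = 4 lists each). Together the outer 10% at each end held 22.2%, 23.0%, 22.3% and 22.5% in HT and 21.2%, 19.7%, 21.5% and 20.1% in PT. The groups did not overlap, with a difference of 1.89 points (exact permutation p = 0.0286, adjusted p = 0.05). Single chromosomes went both ways, with a higher mean in HT on 6 of the 12 and in PT on the other 6. The share was 19.8 ± 0.879% in HT and 9.07 ± 2.78% in PT on chromosome 25, and 31.9 ± 2.06% in HT and 39.4 ± 5.31% in PT on chromosome 26. Over the 12 together it was 3.08 points with 5120 peaks per list, and the direction turned to -0.0744 points with the outer 5% at each end (exact permutation p = 0.83). Without chromosome 33 the difference was 0.916 points (exact permutation p = 0.114), and without any 1 HT list the exact permutation p was 0.0571. Chromosome 22 was the most weighted to its ends, with 47.2 ± 2.79% of its peaks in the outer 10% at each end in HT and 47.5 ± 3.96% in PT.

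Peaks on these chromosomes were slightly wider than those elsewhere in the same list. The medians were 511, 500, 503 and 499 bp in HT and 490.5, 501.5, 515 and 528 bp in PT, and the groups overlapped. The HT minus PT difference was -5.50 bp (exact permutation test, p = 0.543, adjusted p = 0.633). It turned to 20.25 bp with 5120 peaks per list (exact permutation p = 0.200). Against the rest of its own list, the median was 6.75 ± 1.5 bp higher in HT and 27.6 ± 12.6 bp higher in PT. It was higher in 8 of 8 lists (mean 17.2 bp, exact permutation test by sign flips, p = 0.00781, adjusted p = 0.00781). Without chromosome 33 that exact permutation p was 0.0703, with a mean of 15.9 bp, and with 5120 peaks per list the mean was 46 bp. The rest of the list had a mean of 496.5 bp in HT and 481 bp in PT. In HT, chromosomes 23 (466.5 bp), 26 (472 bp), 24 (475 bp), 31 (481 bp) and 32 (486 bp) lay below it. In PT, chromosomes 24, 26, 30 and 32 did. The other chromosomes of the 12 lay above it in each group. Chromosome 16 had the highest mean of the 12, at 551 ± 12.97 bp in HT and 676.5 ± 63.0 bp in PT. In HT its lists (534.5 to 566 bp) overlapped those of chromosome 22 (532 to 556 bp), among others. In PT its lists (645 to 771 bp) overlapped none of the other chromosomes, on 28 to 33 peaks per list. The 3 widest regions were 25:600897-609879 with 8983 bp in 3 HT lists only, and 25:529328-536782 and 16:1828765-1836060, which all 8 lists held.

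The peaks of these chromosomes ranked above the middle of their lists. The percentile used here is the rank of a peak's score from the lowest, in percent of the list, with tied peaks given their mean rank. The median peak stood at the percentiles 59.7, 59.9, 53.9 and 58.2 in HT and 56.4, 53.8, 56.1 and 60.0 in PT. The median of the rest of the list was 49.0 to 49.4 in HT and 48.8 to 49.5 in PT. The gap averaged 8.02 percentile points and was positive in 8 of 8 lists (4.35 to 11.2, exact permutation test by sign flips, p = 0.00781, adjusted p = 0.00781). Of the 100 highest-scoring peaks, 27, 25, 25 and 28 lay here in HT lists and 24, 24, 24 and 22 in PT lists. Of the whole list, 12.3% to 13.2% lay here in HT and 9.54% to 11.4% in PT. Percentiles of lists of different length do not show a change between groups, so HT and PT were not compared by them. Without chromosome 33 the gap averaged 4.53 points (exact permutation p = 0.00781).

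The chromosomes again differed. Chromosome 30 was highest, with a median percentile of 65.6 in HT (61.1 to 69.6 over lists) and 74.8 in PT (64.3 to 81.2). Chromosome 22 stood at 64.9 in HT and 60.0 in PT, and chromosome 33 at 64.2 in HT and 63.4 in PT. Below the middle of the HT lists were chromosome 23 at 42.1, chromosome 24 at 43.2, chromosome 26 at 48.95 and chromosome 16 at 49.9, the last of which stood at 55.4 in PT. In PT, chromosome 26 was lowest at 38.5. The 100 highest-scoring peaks of each list were also pooled over the 4 lists of a group, where a region can count once per list. These sums are therefore not numbers of regions, and from lists of different length they do not show a change between groups. The pooled peaks included 20 of chromosome 33 in HT and 16 in PT, and 19 of chromosome 25 in HT and 18 in PT. For chromosome 16 these sums over 4 lists were 17 in HT and 5 in PT. Chromosome 24 had 0 in either group. The mean shares of the whole list were 3.22% in HT and 2.68% in PT on chromosome 33. They were 1.09% and 1.12% on chromosome 25, 0.630% and 0.507% on chromosome 16, and 0.627% and 0.502% on chromosome 24.

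**Figure D5:**
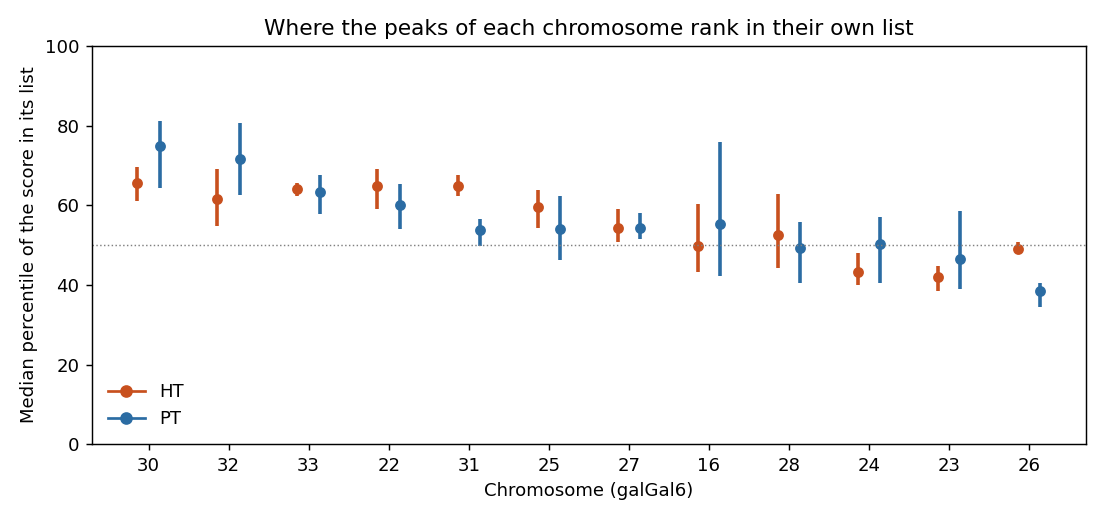
Median percentile of the peak score within its own list (vertical axis, 0 to 100) for each chromosome, with the mean of 4 lists as a point and their range as a line, HT left of PT. The dotted line is the 50th percentile; chromosome 30 lies highest, at 65.6 in HT and 74.8 in PT.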

How the data were processed

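Per the submitters' processing notes, the tools were cutadapt 1.9.2 and Bowtie2 2.2.4 and the build galGal6; settings are not stated. Each of the 8 deposited peak lists gives chromosome, start, end, a peak name beginning with MACS and a score from the authors' caller, whose scale is not stated. Not given in the sources used here are the caller's version and threshold, any control, the handling of duplicates, and whether each list was called on 1 sample alone. Starts were raised by 1 base.

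Group means were compared by exact two-sided permutation tests, and values within a list by exact sign flips. The sign-flip tests, the windows, the stretches, the 1.2-Mb tiles and the equal-length counts per chromosome were added after the data were seen. Chromosome 16 is itself among chromosomes 11 to 20, so it was left out of that comparison, which the plan had not said. A region counted as held with 1 bp of a peak in it. Windows take peaks by their midpoint. Named regions are the 8 HT-only, 8 PT-only and 10 common regions with the highest mean score percentile, the first on each chromosome, the 3 widest and those of chromosome 16. The members, lists and tests were chosen with earlier results of these data known. The code was tested on simulated lists. Alternatives were stronger peaks, equal list lengths, peaks of 260 bp or wider, other denominators, other end sizes, merging within 500 bp, a cover of 50%, chromosomes 31 or 33 left out, the replicate block and each list left out. No genome sequence was used, and the gene table at hand is of another assembly. Computations ran in Python 3.11.15 with pandas 2.3.3 and numpy 2.4.6, and plots in matplotlib 3.10.9.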

Additional observations from a re-analysis of the deposited data

Results flagged for a closer look

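In 2 of 44 sets of 4 lists, 1 list lay far from the others by Dixon's criterion, which chance meets in about 1 of 20 sets. PT list 4 had 0.407% of its peaks on chromosome 24, against 0.527% to 0.540% in the other PT lists. HT list 3 had 0.201% of its peaks on chromosome 32, against 0.214% to 0.215% in the other HT lists.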

How the results depend on the processing

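Of 310 alternative values, 280 kept their direction and their side of a p of 0.05, or for counts stayed within 1.5 times. That p was adjusted over 34 chromosomes for the shares of single chromosomes, and unadjusted otherwise. For these shares the side was nearly fixed in advance, since at least 20 of the 34 chromosomes had to reach the smallest p. The share of chromosome 24 counted as kept although its difference fell from 0.125 to 0.0195 points with equal list lengths. The count of 280 is therefore no measure of how stable the sizes were. The cause of the exceptions was not tested. With the replicate number as a block the HT minus PT differences were 650.5 peaks, 2.37 points of the list, 424 kb and 1.89 points for the outer 10%, with p = 0.125, the smallest that exact sign flips of 4 pairs allow. The numbers gave no sign of pairing lists: correlations of deviations over the 2992 regions were 0.00194, 0.00615, 0.0153 and 0.0158, and 2 of 4 HT lists correlated best with their own number.

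When each list was left out, the share of the list differed by 2.08 to 2.71 points, the outer 10% by 1.59 to 2.18 points, the median width by -11.6 to 0.917 bp, the count per 100 peaks on chromosomes 11 to 20 without 16 by 2.43 to 11.8, the share on chromosome 16 by -0.0444 to 0.365 points and that of chromosome 25 by -0.0608 to 0.00788 points. Among the highest-scoring 50% and with equal list lengths, the differences were 19.25 and 20.25 bp in width, 18.8 and 27.5 per 100 peaks, and -0.327 and -0.582 points for chromosome 16. Chromosome 25 turned to 0.117 points with equal lengths. The outer 5% gave -0.0744 points. Without chromosome 33, chosen after the data were seen, the outer 10% differed by 0.916 points, the width exceeded the rest of the list by 15.9 bp, and 86 regions were in all lists. HT-only regions numbered 269 in the strongest 50% and 253 with equal lengths. PT-only regions numbered 101 in the strongest 50% and 156 with equal lengths, and common regions 81 with a 50% cover. Counting chromosome 16 also among chromosomes 11 to 20 gave 5.87 per 100 peaks (exact permutation p = 0.314). Peak numbers are limited by sequencing depth, which is unknown.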

Other observations

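Unlocalised scaffolds that the build assigns to 3 of these chromosomes fell outside the rule. The scaffold of chromosome 16 had 4, 3, 3 and 1 peaks in HT lists and 3, 3, 4 and 0 in PT lists, in 9 regions of which 0 were in all 8 lists. That of chromosome 25 had 1 region, held by each HT list and no PT list, and that of chromosome 31 had 1 region, held by HT lists 1, 2 and 3.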
